A study of Homo sapiens with 9 samples.

Results

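HIF-1α ChIP-seq signal was examined at 7 promoter sites, those of NARF, CDC27, DEAF1, PIK3R2, ACIN1, MTA2 and U2AF2, each of which was called in normoxic as well as hypoxic cells. The sites were chosen from the peak calls themselves: windows of 30 to 100 kb around these genes were searched in all 6 peak lists, and in each window a single region was called in all 6. Overlapping peaks of any lists, by 1 bp or more, were merged to a region, which gave 9420 regions in the series. Of these, 20 (0.212%) were called in all 6 lists, the 7 sites among them. Since these calls picked the sites, nothing is read from that count and no test was run on the comparison of oxygen levels.

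The libraries came from the human neuroblastoma line SK-N-BE(2), kept for 48 hours at 21% oxygen (normoxia, 3 libraries) or at 1% oxygen (hypoxia, 3 libraries), fixed, and immunoprecipitated with an antibody to HIF-1α. The 3 input libraries were from 21% oxygen, and no input at 1% oxygen was used here. All cells were of 1 line, and the labels give no separate cultures. The question was where HIF-1α sits on the genome when oxygen is low. The lists give the enrichment obtained with the antibody, and whether HIF-1α or another protein gave it at these 7 sites was not tested.

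HIF-1α is the oxygen-sensitive subunit of the transcription factor HIF-1. In the presence of oxygen it is hydroxylated by prolyl hydroxylases, recognised by the VHL ubiquitin ligase and degraded. When oxygen falls it pairs with ARNT and binds a short core motif, ACGTG or GCGTG, in promoters and enhancers of genes for glycolysis, blood vessel growth and pH control. The 7 genes here are not textbook targets of that kind: DEAF1 and MTA2 act in transcription and chromatin, ACIN1 and U2AF2 in RNA splicing, CDC27 in the cell cycle, PIK3R2 in phosphoinositide 3-kinase signalling, and NARF binds prelamin A at the nuclear lamina.

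The promoter sequences of the 7 genes fell into a pattern that the calls did not use. RefSeq promoters of GRCh38.p14, which run from 250 bases before a transcription start to 50 bases after it, were found for 7 of 7 genes, with 13 starts in all. The peak lists are on hg19 and no hg19 annotation was used here, so a peak could not be assigned to 1 of several starts, and the label of a promoter site rests on the windows. Shown first is the NARF promoter with the most copies of ACGTG, chr17:82457948-82458197 on the plus strand, given 5′ to 3′ up to the base before the start, with copies of that core in capitals.
NARF: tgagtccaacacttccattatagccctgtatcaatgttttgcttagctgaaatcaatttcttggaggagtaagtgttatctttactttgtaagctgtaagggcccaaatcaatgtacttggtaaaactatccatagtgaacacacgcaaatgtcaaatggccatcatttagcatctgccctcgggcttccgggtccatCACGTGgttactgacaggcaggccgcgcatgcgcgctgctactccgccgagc
The capitals form 1 CACGTG, a palindrome that reads ACGTG on both strands, and a further ACGTG lies in the 50 bases after the start. The 3 matches compare with 1.98% of all 35116 promoters that have at least as many. The same promoter holds the palindromic motif of the factor NRF1, found in 1.24% of all promoters.

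None of the promoters of the other 6 genes held ACGTG on either strand, a core found in 21.4% of all promoters. The other core, GCGTG, was held by promoters of CDC27 (3 copies), ACIN1 and MTA2. Each of the 6 genes had a promoter with many copies of TCGG (CCGA on the opposite strand), a pattern searched for after the sequences had been seen. For genes with several starts the promoter with the most copies is shown, because the repeats are what these 6 have in common. The stretches are chr11:695223-695472, chr19:18152913-18153162, chr11:62601866-62602115, chr17:47189296-47189545, chr14:23095137-23095386 and chr19:55654785-55655034 of GRCh38.p14, on the minus strand for DEAF1, MTA2, CDC27 and ACIN1 and on the plus strand for PIK3R2 and U2AF2. Each is given 5′ to 3′ over the 250 bases before the start, with every TCGG or CCGA in capitals.
DEAF1: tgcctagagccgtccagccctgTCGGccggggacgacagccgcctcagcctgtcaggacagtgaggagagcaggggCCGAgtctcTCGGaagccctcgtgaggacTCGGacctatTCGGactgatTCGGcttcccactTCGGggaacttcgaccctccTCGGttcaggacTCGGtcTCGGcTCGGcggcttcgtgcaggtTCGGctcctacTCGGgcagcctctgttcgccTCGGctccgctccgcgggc
PIK3R2: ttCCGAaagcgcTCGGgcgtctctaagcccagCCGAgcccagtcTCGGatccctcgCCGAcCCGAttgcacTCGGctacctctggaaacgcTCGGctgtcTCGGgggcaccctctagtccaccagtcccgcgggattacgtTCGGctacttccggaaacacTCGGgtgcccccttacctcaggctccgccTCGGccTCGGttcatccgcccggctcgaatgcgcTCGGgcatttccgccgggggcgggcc
MTA2: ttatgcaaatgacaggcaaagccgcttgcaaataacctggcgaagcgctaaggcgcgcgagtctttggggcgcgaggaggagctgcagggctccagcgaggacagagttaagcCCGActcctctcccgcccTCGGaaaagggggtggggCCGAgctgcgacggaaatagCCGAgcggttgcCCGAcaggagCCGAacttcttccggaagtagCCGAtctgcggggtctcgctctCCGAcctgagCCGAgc
CDC27: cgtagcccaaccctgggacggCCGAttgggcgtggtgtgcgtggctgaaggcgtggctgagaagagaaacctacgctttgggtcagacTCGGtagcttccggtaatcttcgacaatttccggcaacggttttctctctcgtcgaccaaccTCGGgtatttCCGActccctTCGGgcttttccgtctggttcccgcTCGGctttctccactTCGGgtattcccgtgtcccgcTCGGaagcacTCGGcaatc
ACIN1: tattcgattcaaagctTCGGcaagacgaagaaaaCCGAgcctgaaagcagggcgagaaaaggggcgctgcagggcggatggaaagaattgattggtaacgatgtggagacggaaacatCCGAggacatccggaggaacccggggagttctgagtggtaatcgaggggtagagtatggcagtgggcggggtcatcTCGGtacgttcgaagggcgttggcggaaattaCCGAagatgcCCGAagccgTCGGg
U2AF2: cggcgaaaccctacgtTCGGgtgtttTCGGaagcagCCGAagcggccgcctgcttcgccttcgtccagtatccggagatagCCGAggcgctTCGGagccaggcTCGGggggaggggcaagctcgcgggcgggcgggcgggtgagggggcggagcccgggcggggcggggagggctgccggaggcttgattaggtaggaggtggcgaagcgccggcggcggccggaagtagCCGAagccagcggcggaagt
DEAF1 had 18 copies in its full 300-base promoter window of 250 plus 50 bases, a number reached by 2 of 35116 promoters. PIK3R2 had 15, MTA2 had 11, CDC27 had 10, and ACIN1 and U2AF2 had 8 each. At least 8 copies were present in 110 promoters, or 0.313%, and the median over all promoters was 1. Counted by gene, 101 of 27305 gene symbols (0.37%) had a promoter with at least 8. The cut of 8 is the lowest count of these 6 genes, so that all 6 reach it is no result. The motif contains a CpG, and CpG-rich promoters hold more of it: among the 9887 promoters with at least 27 CpG dinucleotides, the lowest count among these 6, the median was 3 copies and 1.06% had at least 8. The NARF promoters had 2 to 5 copies.

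The longer form TTCGG was found in the promoters of all of these 6 genes, with 6 copies in U2AF2, 5 in DEAF1, 3 in ACIN1 and 2 each in CDC27, PIK3R2 and MTA2, and in none of the NARF promoters. At least 1 copy was present in 7 of the 13 promoters and in 22.1% of all promoters. The other longer form searched, CTCGG, did not set NARF apart: it was found at all 7 genes, in 12 of the 13 promoters, and in 43.7% of all promoters. DEAF1, whose own promoter had the most copies of TCGG, encodes a transcription factor known to bind clustered TTCG elements; its binding was not measured here. Not every start of these genes had the repeats: 7 of the 13 promoters, which included the other DEAF1, MTA2 and ACIN1 starts, had fewer than 8. Of the other motifs searched, GCGTG was present at NARF, CDC27, ACIN1 and MTA2, in 5 of the 13 promoters (36.5% of all promoters). The ETS-family motif CCGGAAG was present at 6 of 7 genes, DEAF1 being the exception, in 6 of the 13 promoters (10.3% of all promoters). The GC box GGGCGG was found at 6 genes, all but CDC27, in 9 of the 13 promoters (45% of all promoters). CCAAT was found at NARF, CDC27 and ACIN1, in 4 of 13 (34.6%), and the YY1 motif at ACIN1 alone, in 1 of 13 (1.2%). The cyclic AMP response element TGACGTCA and the palindrome with a central CGCG known from some constitutive promoters matched none of the 13 promoters (1.85% and 0.424% of all). All motifs were sought on both strands, and a match is a match of letters, not a measured binding site.

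**Figure D1:**
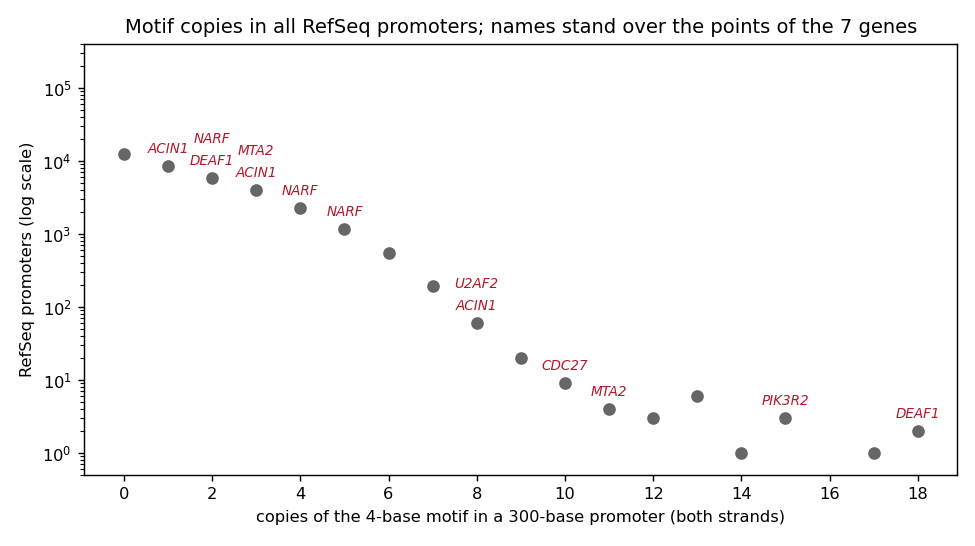
Number of RefSeq promoters (y axis, log scale) by copies of TCGG or CCGA in the 300-base promoter (x axis); each point is the count of promoters with that many copies, and names stand over the copy numbers of the 13 starts of the 7 genes. DEAF1, PIK3R2, MTA2, CDC27, ACIN1 and U2AF2 each have a start with 8 to 18 copies, while the 3 NARF starts have 2 to 5.

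Several of these starts face another gene. The DEAF1 start with 18 copies shares 84 bases of promoter with TMEM80 on the opposite strand, whose own promoter there has 15 copies. ACIN1 likewise shares 132 or 133 bases with C14orf119, and the downstream NARF starts share 244 and 279 bases with the antisense RNA gene NARF-AS2. A peak between such starts cannot be given to 1 of the genes.

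Reads at each summit, the highest point of a peak, were recovered as whole numbers from the deposited fold and p-value. They were divided by the library's genome-wide background, the lowest local background in its list, to give the summit signal. Background depth was 5.31 to 6.69 reads per kb in the 6 libraries. Each read is extended to the fragment length when peaks are called, and this extension was short, 46 to 48 bp, in hypoxia 1 and all of normoxia, and long in hypoxia 2 (155 bp) and hypoxia 3 (167 bp). Signals of the first 4 are therefore on 1 scale, and those of hypoxia 2 and 3 on another that is only roughly comparable. Local background at the 7 sites was at most 5.54 times the genome-wide value.

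NARF had the highest summit signal of the 7 sites in each of the 6 libraries. Its ratio of hypoxia to normoxia signal was the highest of the 7 when all 3 hypoxia libraries were used, but the second lowest with hypoxia 1 alone, the only one on the scale of normoxia. Its region spans 904 bp at chromosome 17: 80415801 to 80416704 (hg19). Libraries are given in the order 1, 2, 3 throughout. Summit reads numbered 17, 26 and 59 for normoxia against 47, 210 and 227 for hypoxia, with exact Poisson 95% intervals, which cover counting error only, from 9.9 to 27.2 reads in normoxia 1 and from 198 to 259 reads in hypoxia 3. The corresponding summit signals were 55.3, 92 and 201 times background (normoxia) and 148, 228 and 256 times background (hypoxia). Both hypoxia libraries with a long extension lay above all normoxia libraries, but hypoxia 1 lay below normoxia 3, so the groups overlapped. The means were 116 ± 75.6 in normoxia and 211 ± 56.2 in hypoxia (SD, n = 3 each), and the ratio of geometric means was 2.04. In the deposited fold over local background, NARF stood first of 109 peaks in normoxia 3 (rank 1), at rank 2 of 32 in normoxia 2 and rank 21 of 75 in normoxia 1, and at rank 61 of 1408, 38 of 5833 and 13 of 7619 in hypoxia 1, 2 and 3.

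At the transcription and chromatin genes DEAF1 and MTA2 the oxygen levels lay closer together than at NARF when all 3 hypoxia libraries were used. With hypoxia 1 alone they did not: its ratio to normoxia was 1.80 and 1.56, against 1.47 at NARF. DEAF1 (chromosome 11: 695013 to 695869, 857 bp) had summit signals of 32.5, 38.9 and 74.8 for normoxia against 81.9, 29.3 and 57.5 for hypoxia. The summit reads behind these values were 10, 11 and 22 for normoxia against 26, 27 and 51 for hypoxia. The highest value was that of hypoxia 1 and the lowest that of hypoxia 2, with the normoxia values between them. MTA2 (chromosome 11: 62369103 to 62369637, 535 bp), which encodes a subunit of the NuRD chromatin remodelling and deacetylase complex, had signals of 32.5, 28.3 and 44.2 for normoxia against 53.5, 26.1 and 30.5 for hypoxia, again with hypoxia 1 highest and hypoxia 2 lowest. The ratio of hypoxia to normoxia geometric means was 1.13 at DEAF1 and 1.02 at MTA2.

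At both splicing genes hypoxia 2 was the lowest library. ACIN1 (chromosome 14: 23564145 to 23564900, 756 bp), whose product is part of a complex deposited on spliced RNA, had signals of 45.5, 38.9 and 64.6 for normoxia against 101, 35.9 and 57.5 for hypoxia, with hypoxia 1 the highest library. U2AF2 (chromosome 19: 56165600 to 56166264, 665 bp) encodes the large subunit of the factor that recognises the polypyrimidine tract before the 3′ splice site. Its signals were 29.3, 31.8 and 51 for normoxia against 47.2, 23.9 and 56.4 for hypoxia; here hypoxia 3 was the highest library. The ratios of geometric means were 1.22 and 1.10.

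CDC27 (chromosome 17: 45266112 to 45267044, 933 bp) encodes a core subunit of the anaphase-promoting complex. Normoxia gave signals of 45.5, 42.4 and 88.4, hypoxia 91.3, 45.6 and 60.9. PIK3R2 (chromosome 19: 18263189 to 18264031, 843 bp) encodes p85β, a regulatory subunit of phosphoinositide 3-kinase. Normoxia gave 29.3, 31.8 and 47.6 there, hypoxia 75.6, 19.6 and 36.1, with only 9 reads at the summit in normoxia 1 and in normoxia 2 (exact Poisson 95% interval 4.12 to 17.1 reads). The ratios of geometric means were 1.14 and 1.06, and in both genes hypoxia 1 was the highest library.

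**Figure D2:**
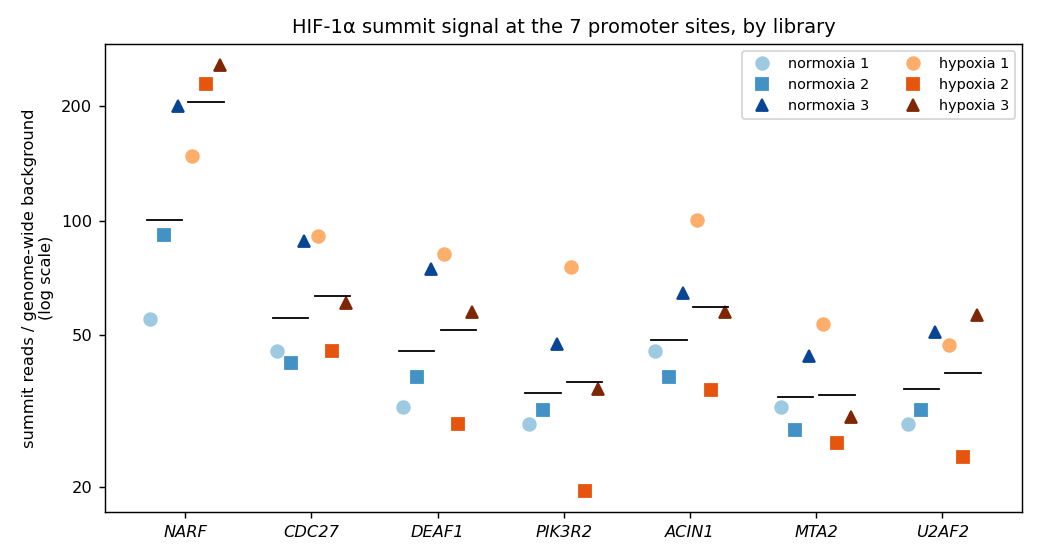
Summit reads divided by the genome-wide background (y axis, log scale) at each of the 7 sites in the 6 libraries; symbols are single libraries and horizontal lines are the geometric means of 3 libraries. At NARF both long-extension hypoxia libraries are the highest, whereas at CDC27, DEAF1, PIK3R2, ACIN1 and MTA2 hypoxia 1 is the highest and hypoxia 2 or a normoxia library the lowest.

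Across the 7 sites the ratio of hypoxia to normoxia geometric means had a median of 1.13 and ran from 1.02 at MTA2 to 2.04 at NARF. At 0 of the 7 did all hypoxia libraries exceed all normoxia libraries, against 4 of the 20 regions called in all 6 lists (20%). Single libraries set the side of 1 on which the median fell: it was 0.936 without hypoxia 1 and 0.991 without normoxia 1. NARF stayed above 1 with any single library left out, between 1.51 and 2.88. Among the other genes DEAF1, PIK3R2 and MTA2 came out under 1 in either case. With the deposited fold in place of the summit signal the ratios were higher, with a median of 1.51 and a range of 1.40 to 3.12, and the groups were apart at 1 site, U2AF2. That fold adds 1 to reads and to local background, which favours libraries of long extension by construction.

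On the common scale of the short-extension libraries, hypoxia 1 exceeded normoxia 1 and normoxia 2 at each of the 7 sites. The ratio to normoxia 1 had a median of 2.21 and a range of 1.61 to 2.68, and that to normoxia 2 a median of 2.10 and a range of 1.48 to 2.59. Against normoxia 3 the median was 1.09, the range was 0.737 at NARF to 1.59 at PIK3R2, and 5 of 7 sites were above 1. Other low-background regions shared with these lists had medians of 1.94 for normoxia 1, 1.62 for normoxia 2 and 1.65 for normoxia 3, and hypoxia 1 was the higher library at 15 of 17, 13 of 15 and 54 of 65 of them, so that a higher hypoxia 1 signal was common outside the 7 sites too. Over all 3 normoxia libraries, the ratio of hypoxia 1 to their geometric mean was 2.13 at PIK3R2, 2.08 at ACIN1, 1.80 at DEAF1, 1.65 at CDC27, 1.56 at MTA2, 1.47 at NARF and 1.30 at U2AF2. These are ratios of single libraries with no replicate check.

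The 3 hypoxia libraries ordered the sites differently. The sites had to be called in every hypoxia and normoxia list, which bears on these ratios, so they are given as a description. At NARF the signal of hypoxia 2 was 1.54 times and that of hypoxia 3 1.73 times that of hypoxia 1. At the other 1078 regions called in all 3 hypoxia libraries the medians were 1.27 and 1.48, and 69.6% and 66.9% of them lay at or below NARF. The other 6 sites lay below these medians. Hypoxia 2 had 0.259 times the hypoxia 1 signal at PIK3R2, 0.356 at ACIN1, 0.359 at DEAF1, 0.487 at MTA2, 0.5 at CDC27 and 0.506 at U2AF2. Between 0.0928% (PIK3R2) and 3.53% (U2AF2) of the 1078 regions were at or below these values. Hypoxia 3 had 0.478 to 0.703 times the hypoxia 1 signal at 5 of the 6 sites, where 1.39% to 6.49% of the regions were as low, but 1.19 times at U2AF2, where 30.8% were. At DEAF1 these ratios compare different summits: the best one lay at 695202 in hypoxia 1 but at 695704 and 695687 in hypoxia 2 and 3. Nearest the median summit position, hypoxia 1 had a deposited fold of 12.5 there, against 20.5 at its best summit. At ACIN1 and U2AF2 too, the best summit of hypoxia 1 was not the one nearest that position.

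Of the 7 sites, 6 were lower in hypoxia 2 and 5 lower in hypoxia 3 than in hypoxia 1. At the 1078 other regions this held for 343 (31.8%) and 211 (19.6%). Of the 228 other regions with a hypoxia 1 signal at least as high as that of U2AF2, the weakest of the 7 in that library at 47.2, 16.2% had a lower signal in hypoxia 2 and 9.65% in hypoxia 3 than in hypoxia 1. The 13 other regions called in all 6 lists, which passed the same rule, had medians of 0.883 and 1.04; 8 of them were lower in hypoxia 2 than in hypoxia 1 and 6 were lower in hypoxia 3. With deposited folds the 6 sites had a median hypoxia 2 to hypoxia 1 ratio of 0.794 and a median hypoxia 3 to hypoxia 1 ratio of 1.28, against 2.15 and 2.40 at the 1078 regions, so the second of these was above 1 on that scale. The fragment extension differs between hypoxia 1 and the other hypoxia libraries, and its part in these ratios was not tested.

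**Figure D3:**
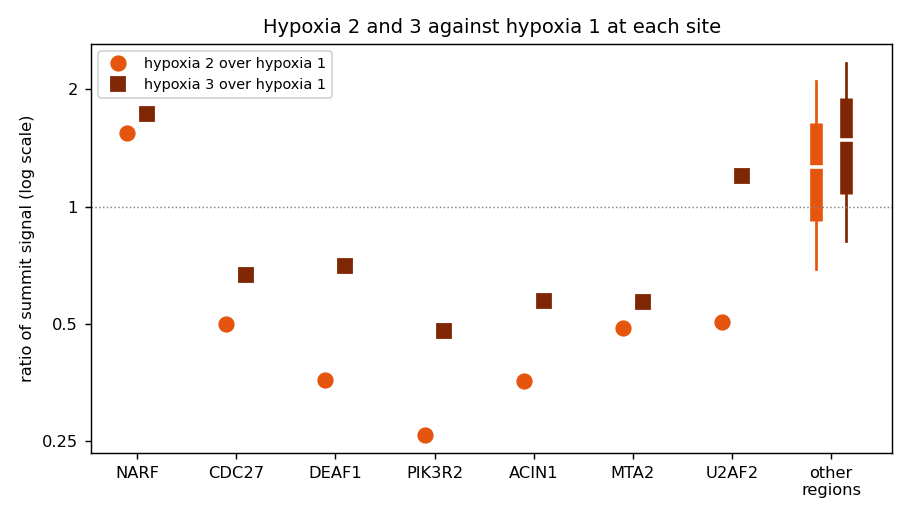
Ratio of the summit signal in hypoxia 2 (circles) or hypoxia 3 (squares) to that in hypoxia 1 (y axis, log scale) at each of the 7 sites; at the right, the 1078 other regions called in all 3 hypoxia libraries, with the median (white line), quartiles (thick bar) and the range from the 10th to the 90th percentile (thin bar). NARF lies within the bars of the other regions, and the other 6 sites lie below the thin bar for hypoxia 2.

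Among the 7 sites the best summits lay closest together at NARF. At NARF the best summits of the 6 libraries lay within 24 bp, from 80416100 to 80416124. CDC27 had its best summits within 71 bp and MTA2 within 138 bp. At ACIN1, U2AF2, DEAF1 and PIK3R2 they spread over 283, 327, 502 and 587 bp, because these regions held several summits and the libraries differed in which was best. When the summit nearest to the median position was taken in each library, the spread was 132, 131, 111 and 66 bp. The median spread over the 7 sites was 283 bp with the best summits, 71 bp without normoxia 1, and 111 bp with the nearest ones. At the other 13 regions called in all 6 lists the best summits had a median spread of 112 bp and a range of 34 to 1634 bp, so a small spread was not particular to NARF.

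Peaks were wide and often split. DEAF1 had 6 summits in normoxia 3 and 5 in hypoxia 1 but 2 each in hypoxia 2 and hypoxia 3, and U2AF2 had 5 summits over 2 intervals in normoxia 3. NARF had 3 summits in normoxia 2, normoxia 3 and hypoxia 1 and 1 in hypoxia 2 and hypoxia 3. Called intervals covered 763 ± 138 bp at NARF in hypoxia and 453 ± 159 bp in normoxia, and 797 ± 33 bp and 487 ± 314 bp at DEAF1 (SD, n = 3 each). PIK3R2 had the largest spread of covered length in normoxia: 221, 56 and 843 bp in normoxia 1, 2 and 3. The 835 bp covered in hypoxia 3 was thus matched by normoxia 3. Among the short-extension libraries, hypoxia 1 and normoxia 3 covered 629 and 620 bp at NARF, and 768 and 832 bp at DEAF1. Normoxia 1 and normoxia 2 covered less at both sites.

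**Figure D4:**
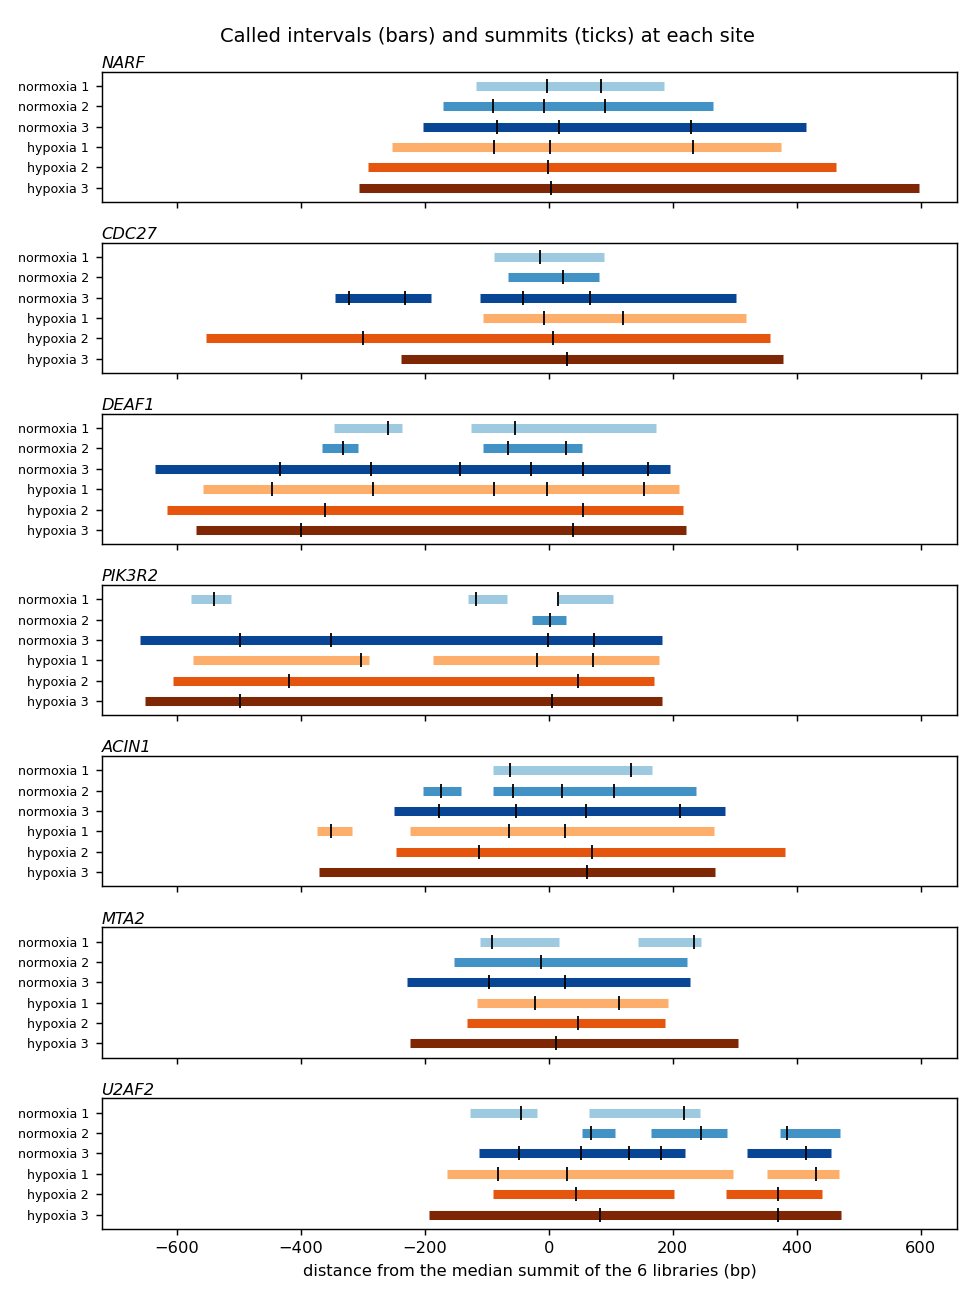
Called intervals (bars, coloured by library) and summits (black ticks) at each of the 7 sites, drawn to scale as distance in bp from the median of the best summits of the 6 libraries (x axis). NARF has a tick of every library near 0, and DEAF1 and U2AF2 have at least 2 ticks in each library and more than 1 interval in normoxia 1 and normoxia 2.

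In −log10 q the 7 sites lay above the lowest value of each list, by least in normoxia 1 and normoxia 2. There the site of lowest −log10 q was U2AF2 with 9 summit reads and ACIN1 with 11. The sites were picked for being called in every list, so these values are a description. The lowest −log10 q of the 7 was 3.57, 4.02 and 8.99 over the normoxia lists and 11.3, 14.1 and 16.6 over the hypoxia lists, where the lists reached down to between 1.30 and 1.65. By fold, the 7 sites had a median rank in the first 14.7%, 40.6% and 7.34% of the normoxia 1, 2 and 3 lists and the first 4.33%, 13.5% and 8.48% of the hypoxia 1, 2 and 3 lists. Outside the choice stood the 13 other regions called in all 6 lists and 8 regions called in 5 of the 6. The geometric mean fold of the 13 was 3.74 to 27.5, against 9.16 (U2AF2) to 26.4 (NARF) for the 7 sites. That of the 8, over the lists that called them, was 3.87 to 22.8.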

How the data were processed

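HIF-1α ChIP-seq of 6 libraries was analysed. Per the submitters' processing notes, reads were aligned with BWA 0.7.17 and peaks called with MACS2 on hg19; the MACS2 version, settings and duplicate filter were not given in the sources used here. What the authors deposited is 1 narrowPeak list per library: a fold ratio of the summit over local background, −log10 p, −log10 q, a score equal to 10 times −log10 q cut to a whole number, and the summit's offset. In the fold, 1 is added to the reads and to the local background. Folds, ranks and q describe peaks within their list.

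Chromosomes 1 to 22, X and Y were used, with positions 1-based. From fold and p-value, whole reads and local background were recovered at 16463 of 16463 deposited lines within 0.001 of −log10 p. The same code, tested on 500 simulated summits, recovered 100%. Those summits were built with the formula that the code inverts, so they test the code only. A site's value is that of its summit of smallest p. The shortest peak of a list was taken as its fragment extension. Python 3.11.15, pandas 2.3.3 and SciPy 1.17.1 were used. Replicates are the libraries the labels number 1 to 3; nothing says that they were separate cultures, so their spread may be technical. No statistical test was run on the 3 against 3 libraries, where an exact permutation test cannot go below p = 0.1. Named sites are the 7 genes; other regions are named by the first 3 in geometric mean fold. The members, motifs and lists were chosen with earlier results of these data known, and TCGG, TTCGG and CTCGG after the promoters were read.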

Additional observations from a re-analysis of the deposited data

How the results depend on the processing

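The ratio of hypoxia to normoxia signal, with a median of 1.13 over the 7 sites, was 1.81 with reads plus 1 over background plus 1, which favours libraries of long extension by construction. With the summit nearest to the median position in each library the median was 1.22. That setting moved U2AF2 from 1.10 to 1.38 and PIK3R2 from 1.06 to 1.22, and left MTA2 at 1.02 and NARF at 2.04. Leaving out 1 library at a time, with the best summits, gave a median of 0.936 to 1.48. For single sites this range was 0.951 to 1.44 at CDC27 (0.998 without normoxia 2), 0.902 to 1.51 at DEAF1 (0.958 without normoxia 1), 0.751 to 1.48 at PIK3R2 (0.967 without normoxia 1), 0.936 to 1.57 at ACIN1, 0.820 to 1.17 at MTA2 (0.987 and 0.921 without normoxia 1 and 2) and 0.928 to 1.43 at U2AF2 (0.991 without normoxia 1, also the median). The lowest value came without hypoxia 1, but without hypoxia 3 at U2AF2. Each change of side was smaller than 1 SD between libraries. At these 6 sites the same held for the ratios themselves. Their log2 values were 0.0216 (MTA2) to 0.287 (ACIN1), against SDs of 0.451 (MTA2) to 0.740 (PIK3R2). The replicate block by label number gave a median of 1.13, equal by construction, so that median says nothing of stability. The hypoxia to normoxia ratios of libraries with the same number differed. They were 1.61 (U2AF2) to 2.68 (NARF) for number 1 and 0.615 (PIK3R2) to 2.48 (NARF) for number 2. For number 3 they were 0.689 (CDC27 and MTA2) to 1.28 (NARF). Only NARF was above 1 for every number. Hypoxia 2 and 3 have the long extension, and its part in this was not tested.

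Regions called in all 6 lists, 20 in number, were 2 with reciprocal overlap of at least 50%, none of them a member, and 10 at −log10 q of at least 5, where 4 members were left (NARF, CDC27, DEAF1 and PIK3R2). They were 20 to 26 with 1 library left out. The median summit spread of 283 bp lay between 71 and 283 bp with 1 library left out and was 111 bp with the nearest summits. For the 6 sites other than NARF, the median hypoxia 2 to hypoxia 1 ratio of 0.423 was 0.794 with deposited folds. The hypoxia 3 to hypoxia 1 ratio of 0.619 was 1.28. The deposited fold adds 1 to reads and to local background, which favours libraries of long extension by construction. How much of the change this accounts for was not tested. The 6 genes with at least 8 TCGG copies were 4 with the first listed start of each gene and 4 in the 250 bases before the start (0.162% of all promoters); both alternatives and that on deposited folds for the hypoxia ratios were chosen after seeing the data. A summit of 8 to 59 reads in the short-extension libraries limits the precision of any 1 site.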

Other observations

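Outside the promoter sites, the windows held 4 further regions, all in hypoxia libraries only. Most regions of the series were of that kind: of 9420, 5239, 3035 and 1008 had no normoxia call and 1, 2 and 3 hypoxia calls. In the U2AF2 window, a region at chromosome 19: 56154773 to 56155048 (hg19) was called in hypoxia 2 with a deposited fold of 17.7 and 33 summit reads, and in hypoxia 3 with a fold of 6.16 and 19 reads. Its fold in hypoxia 2 was above that of the U2AF2 promoter site in the same list, 10.9, and no normoxia list or hypoxia 1 called it. The others were called in 1 library each: beside CDC27 in hypoxia 1 with a fold of 4.47, in the MTA2 window in hypoxia 3 with a fold of 5.75, and beside U2AF2 in hypoxia 3 with a fold of 5. The one beside CDC27 starts at 45267080, just past the end of the promoter site at 45267044. The one beside U2AF2 starts at 56166379, past the site's end at 56166264.

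By geometric mean fold over the 6 lists, NARF stood at rank 2 of the 20 regions called in all 6. The first 3 regions outside the 7 sites were chromosome 15: 93351931 to 93352811, chromosome 4: 186316992 to 186318319 and chromosome 5: 178862880 to 178864011 (hg19), with ratios of hypoxia to normoxia signal of 2.28, 3.12 and 6.06. The last of these is the highest ratio of the 20. Among regions called in 5 lists, the first 3 were chromosome 12: 6642376 to 6644213, chromosome 17: 63154744 to 63155206 and chromosome 16: 1660492 to 1661174, all without a call in normoxia 2, with ratios of 3.68, 2.31 and 0.847 over the lists that called them. No test was run on these values.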
